A study of Homo sapiens with 4 samples.

Results

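Messages for 10 human genes that bind the 5′ cap of messenger RNA, or that hold such binding back, were followed through ribosome footprints: EIF4E, EIF4E2, EIF4EBP1, EIF4EBP2, EIF4ENIF1, PDCD4, LARP1, MKNK1, MKNK2 and GIGYF2. The genes were chosen by name, from their function in cap-dependent translation, out of 20323 genes with a row in the count files. All 10 had exactly 1 row under their symbol, and all 10 passed the filter on low counts that left 12560 genes for testing. The cells were HCT-8, a human colorectal adenocarcinoma line, in a derivative resistant to 5-fluorouracil (5-FU), an analogue of uracil used as chemotherapy. The OE group received a plasmid that overexpresses METTL14, the RNA-binding partner in the enzyme that writes N6-methyladenosine, and the NC group received a negative control plasmid. Both groups were 5-FU-resistant and both were exposed to 100 ug/mL cycloheximide, which stalls ribosomes on messages. There were 2 libraries per group, from experiments that the submitters call independent. The resistant line is 1 line, and no parental HCT-8 cells and no total RNA were analysed here, so a footprint count combines the amount of a message with its occupancy by ribosomes.

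Translation of most messages begins when EIF4E grips the methylated cap and brings in the scaffold EIF4G and the helicase EIF4A. The small 4E-binding proteins EIF4EBP1 and EIF4EBP2 occupy the same surface of EIF4E as the scaffold does, and they let go when the kinase mTORC1 phosphorylates them. EIF4E2, also called 4EHP, binds the cap without recruiting the scaffold and represses messages together with GIGYF2. EIF4ENIF1, also called 4E-T, carries EIF4E into the nucleus and represses messages in processing bodies. PDCD4 blocks the helicase EIF4A. LARP1 covers the cap of messages that begin with a terminal oligopyrimidine (TOP) tract, and the kinases MKNK1 and MKNK2 phosphorylate EIF4E.

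The libraries held 7742274 and 24392875 estimated counts in OE and 21846389 and 18707758 in NC. Across the log2 CPM (counts scaled to a common library size with TMM factors) of 12560 genes, the OE pair had a Pearson correlation of 0.863 and the NC pair of 0.983; genes are not independent replicates. OE replicate 1 stood apart. Among genes in the lowest decile of NC level its median difference (log2, against the mean of the NC pair) was 1.17, and in the highest decile it was -1.08, whereas the medians of OE replicate 2 over the deciles lay between -0.09 and 0.07. Of 12 markers of colorectal epithelium, all 12 were tested (EPCAM, CDH1, KRT8 and KRT18 among them), and their summed level was 6441 and 24931 CPM in OE against 22414 and 21808 CPM in NC. That sum is mostly keratins. In both OE libraries 1 of the 12 markers lay higher (CDX2) and 6 lay lower, beside 19.9% and 20.4% of all genes. Picked after its values were seen, CDX2 had 27.2 and 44.3 CPM in OE against 27.1 and 21.9 CPM in NC. The tight junction claudin CLDN3 had 45.9 and 42.8 CPM in OE against 139 and 136 CPM in NC, CLDN4 had 116 and 109 CPM in OE against 315 and 344 CPM in NC, and the brush border protein VIL1 had 32.9 and 40.3 CPM in OE against 74.0 and 82.2 CPM in NC. None of the 12 passed edgeR's test, beside 0 of all 12560 genes. At an unadjusted p below 0.05 by that test there were 3 (CLDN3, CLDN4 and VIL1), beside 5.50% of all genes. Of 15 markers of other cell types 4 were tested, and CD3E was at 0 in every library. The summed level of all 15 was 164 and 999 CPM in OE against 741 and 667 CPM in NC. That sum was mostly TUBB3 (153 and 993 CPM in OE, 723 and 651 CPM in NC). By edgeR 0 of the 4 tested markers passed. In both OE libraries 0 of these 4 lay higher and 2 lower (CD14 and COL1A1), beside 19.9% and 20.4% of all genes. ALB, too low to be tested, was higher in both OE libraries, with 1.71 and 0.45 CPM against 0 and 0.23 CPM in NC. CD14 had 2.47 and 2.80 CPM in OE against 11.5 and 8.97 CPM in NC. COL1A1 had 4.09 and 1.36 CPM in OE against 4.48 and 4.87 CPM in NC, and DES had a log2 fold change of -0.55. The part of these differences in the members' values was not tested. METTL14 itself had 448 and 91.2 CPM in OE against 44.5 and 47.6 CPM in NC, above NC in both OE libraries but 4.91 times higher in OE replicate 1 than in OE replicate 2. Its log2 fold change was 2.55 (SE 0.81; adjusted p = 0.734, edgeR), and the DESeq2 Wald test called it (adjusted p = 0.0495).

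None of the 10 cap-binding and repressor messages passed the test between OE and NC. Adjusted p-values (Benjamini-Hochberg, from the quasi-likelihood test of edgeR, over the 12560 genes) ran between 0.734 and 0.994, and 0 of 12560 genes passed (0%). At an unadjusted p below 0.05 there was 1 member, EIF4EBP1, of 10, beside 5.50% of all genes, and the DESeq2 Wald test called 0 members and 25 genes (0.199% of all). Of the 10 members, 2 had OE values that both exceeded both NC values (EIF4EBP1 and MKNK2), 3 lay lower (EIF4E2, PDCD4 and MKNK1) and 5 overlapped. Among all genes 19.9% lay higher and 20.4% lower, 40.3% together, so a count of 5 of 10 is near the background. In such bulk lysates, fewer cells of a kind and less RNA per cell cannot be told apart. Scaled by library totals alone, without TMM, EIF4E2 and PDCD4 also overlapped between the groups, leaving 3 of 10 members apart beside 42.0% of all genes. RLE factors gave the same 5 of 10 as TMM, beside 40.2% of all genes. The median log2 fold change of the members was -0.27, against 0.09 over all genes tested; scaled by library totals it was 0.15, against 0.40 over all genes.

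**Figure D1:**
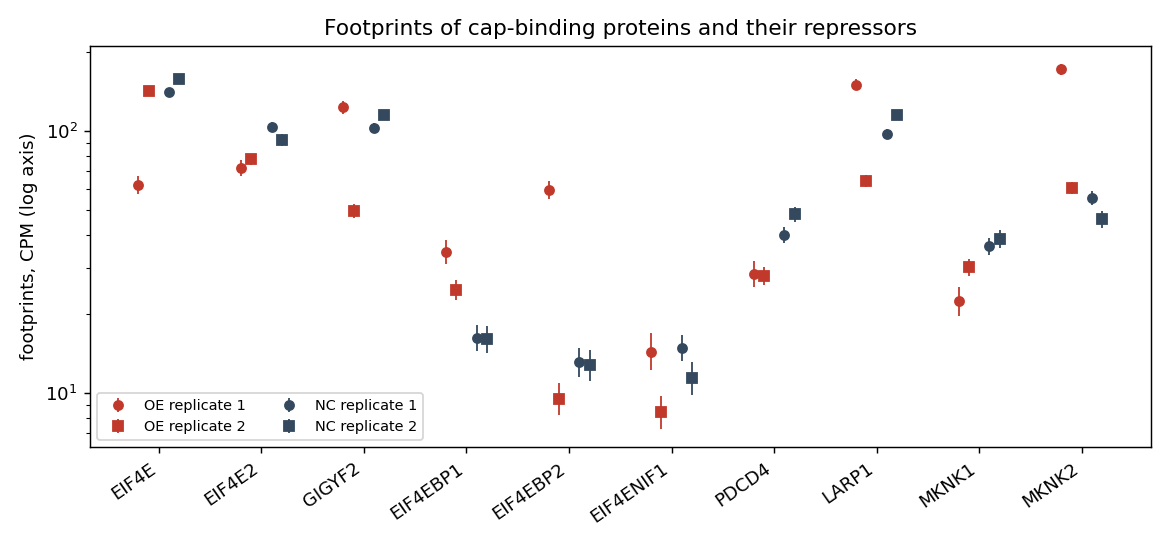
Footprint level of each of the 10 genes in CPM on a log axis, with OE libraries in red left of NC libraries in dark blue, circles for replicate 1 and squares for replicate 2, and bars for exact Poisson 95% intervals (counting error only). The NC libraries differ by at most 0.38 in log2 CPM, for EIF4ENIF1 (14.8 and 11.4 CPM). The OE libraries lie far apart for EIF4EBP2 (59.6 and 9.49 CPM) and close together for PDCD4 (28.5 and 27.9 CPM).

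The OE libraries lay farther apart than the NC libraries. The median absolute log2 difference between the OE libraries was 0.98 over the 10 members and 0.83 over all genes, and between the NC libraries it was 0.17 over the members and 0.17 over all genes. Counting error was small beside this, since the lowest count of any member in any library was 151. Levels are compared below between libraries for 1 gene at a time, because no coding lengths were used with which to set 1 gene's level against another's.

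The cap-binding protein of active translation, EIF4E (ENSG00000151247), had 62.1 and 142 CPM in OE against 141 and 158 CPM in NC. OE replicate 2 lay within the NC range and OE replicate 1 lay below it. The log2 fold change was -0.54 (SE 0.49; adjusted p = 0.774, edgeR). Against the NC mean, OE replicate 1 differed by -1.26 in log2 CPM, while the median gene of the same decile of NC level differed by -0.65 there, and OE replicate 2 differed by -0.06, the same as that decile's median of -0.06.

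Its competitor at the cap, EIF4E2 (ENSG00000135930), was even between replicates, with 72.3 and 77.8 CPM in OE against 103 and 92.3 CPM in NC. Both OE libraries lay below both NC libraries, at a mean of 75.1 ± 3.87 CPM in OE and 97.7 ± 7.73 CPM in NC (SD, n = 2 each). EIF4E2 differed from the NC mean by -0.43 (OE replicate 1) and -0.33 (OE replicate 2) in log2 CPM. Genes in the same decile of NC level had medians of -0.65 and -0.06 there. Their lower and upper quartiles were -1.05 and -0.15 in OE replicate 1, and -0.44 and 0.25 in OE replicate 2. EIF4E2 thus lay between the quartiles of such genes in both OE libraries. The log2 fold change of -0.38 (SE 0.31) had an edgeR adjusted p of 0.752, and with library totals alone the values were 98.4 and 70.6 CPM in OE against 91.8 and 84.2 CPM in NC, which overlap. GIGYF2 (ENSG00000204120), the scaffold that works with EIF4E2, did not follow it. It had 123 and 49.3 CPM in OE against 103 and 115 CPM in NC, with OE replicate 1 above both NC libraries and OE replicate 2 below both. Its fold change over all libraries, -0.34 on the log2 scale (SE 0.51), averages these opposite values, and it was 0.11 with library totals alone.

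Of the 4E-binding proteins, which sequester EIF4E, EIF4EBP1 was higher in both OE libraries and EIF4EBP2 in OE replicate 1 alone. EIF4EBP1 (ENSG00000187840) had 34.5 and 24.7 CPM in OE against 16.2 and 16.0 CPM in NC. Both OE libraries were above both NC libraries. The counting intervals were 31.0 to 38.2 and 22.7 to 26.9 CPM in OE, and 14.5 to 18.1 and 14.2 to 18.0 CPM in NC. They did not meet between the groups, nor did the 2 OE intervals meet each other. Such intervals cover counting error only, and for other members, such as EIF4E and LARP1, those of the NC pair did not meet either. They are therefore no test of OE against NC. Means were 29.6 ± 6.88 CPM in OE and 16.1 ± 0.155 CPM in NC (SD, n = 2 each), a ratio of 1.84, with a log2 fold change of 0.88 (SE 0.32; adjusted p = 0.734, edgeR). Genes in the same decile of NC level had medians of 0.29 (OE replicate 1) and 0.07 (OE replicate 2), where EIF4EBP1 differed from the NC mean by 1.09 and 0.61; the upper quartiles of those genes were 0.89 and 0.42.

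EIF4EBP2 (ENSG00000148730), the close relative of EIF4EBP1, split between the OE libraries. It had 59.6 and 9.49 CPM in OE against 13.1 and 12.7 CPM in NC, so that OE replicate 1 was far above NC and OE replicate 2 was below it. The OE libraries differed 6.28-fold, more than for any of the other 9 members, and the log2 fold change of 1.41 (SE 0.85; adjusted p = 0.734, edgeR) rests on OE replicate 1: without that library it was -0.44. EIF4ENIF1 (ENSG00000184708), which binds EIF4E through a motif of the same kind, had 14.4 and 8.46 CPM in OE against 14.8 and 11.4 CPM in NC. Its OE replicate 1 lay inside the NC range and its OE replicate 2 below it, with a log2 fold change of -0.20 (SE 0.41) that was 0.20 with library totals alone.

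Ratios of 2 genes within a library do not depend on how libraries are scaled. They can still move with level, since in OE replicate 1 genes differed from the NC mean according to their NC level. There the median was 0.29 for the decile of EIF4EBP1, 0.40 for that of EIF4EBP2 and -0.65 for that of EIF4E. In OE replicate 2 these medians were 0.07, 0.07 and -0.06. The part of this in the ratios was not tested. EIF4EBP1 footprints per EIF4E footprint were 0.555 and 0.174 in OE against 0.115 and 0.102 in NC. Both OE ratios lay above both NC ratios. The exact binomial 95% intervals were 0.487 to 0.632 and 0.158 to 0.190 in OE, and 0.102 to 0.130 and 0.0893 to 0.115 in NC. They cover counting error only. They did not meet between the groups, nor did the 2 OE intervals meet each other. The mean log2 ratio was 1.52 higher in OE (a 2.87-fold ratio), with an SD of 1.19 between the OE libraries and of 0.13 between the NC libraries, and an exact 2-sided permutation test over the 4 libraries gave p = 0.333, the smallest that 2 against 2 allows. Leaving out OE replicate 1 gave a difference of 0.68, and leaving out OE replicate 2 gave 2.36.

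For the cap competitor, EIF4E2 per EIF4E was 1.17 and 0.547 in OE against 0.733 and 0.586 in NC. OE replicate 1 lay above the NC ratios and OE replicate 2 below them, so the mean log2 difference of 0.28 had no common direction (exact 2-sided permutation p = 1) and was -0.26 without OE replicate 1. Another 7 ratios were picked after the values were seen. EIF4EBP2 per EIF4E was 0.960 and 0.0667 in OE against 0.0929 and 0.0807 in NC, close to parity in OE replicate 1 and under the NC ratios in OE replicate 2. GIGYF2 per EIF4E2 was 1.70 and 0.634 in OE against 0.994 and 1.25 in NC, again on opposite sides of NC. Of the 9 ratios, 2 did not overlap between the groups, EIF4EBP1 per EIF4E and MKNK2 per MKNK1. In both OE libraries MKNK2 lay above NC and MKNK1 below it, so their ratio could not overlap. No such share over other pairs of genes was computed to set beside this count. After Benjamini-Hochberg adjustment over the 9 exact permutation tests every p was 1.

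**Figure D2:**
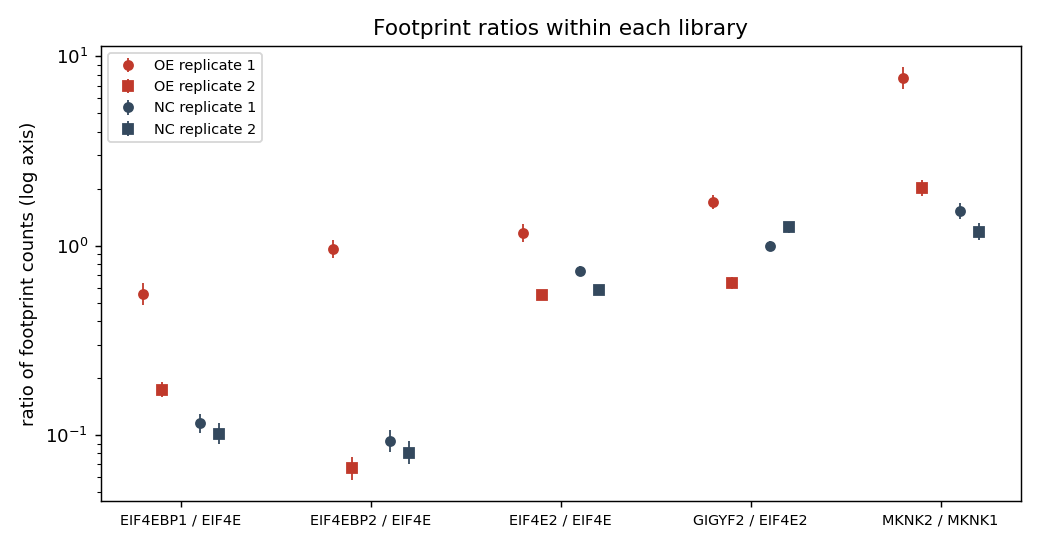
Ratio of footprint counts of 2 genes within each library on a log axis, OE in red left of NC in dark blue, circles for replicate 1 and squares for replicate 2, bars for exact binomial 95% intervals. Both OE points lie above both NC points for EIF4EBP1 per EIF4E (0.555 and 0.174 against 0.115 and 0.102) and for MKNK2 per MKNK1, and on both sides of NC for the other 3 ratios.

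PDCD4 (ENSG00000150593), the inhibitor of the EIF4A helicase, was the member with the closest OE libraries. It had 28.5 and 27.9 CPM in OE against 39.9 and 48.0 CPM in NC. Both OE libraries lay below both NC libraries, at 28.2 ± 0.430 CPM in OE and 44.0 ± 5.73 CPM in NC (SD, n = 2 each), a ratio of 0.640. The log2 fold change was -0.64 (SE 0.29; adjusted p = 0.734, edgeR); with library totals alone OE replicate 1 had 38.7 CPM, between the NC values of 35.5 and 43.8 CPM, while OE replicate 2 had 25.3 CPM.

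The kinases of EIF4E had opposite signs. MKNK1 (ENSG00000079277) had 22.3 and 30.1 CPM in OE against 36.3 and 38.7 CPM in NC, lower in both OE libraries, with a log2 fold change of -0.51 (SE 0.31; adjusted p = 0.734, edgeR). MKNK2 (ENSG00000099875) had 172 and 60.7 CPM in OE against 55.4 and 45.9 CPM in NC, higher in both, with a log2 fold change of 1.20 (SE 0.56; adjusted p = 0.734 by the same test). Most of that difference lay in OE replicate 1, where MKNK2 differed from the NC mean by 1.77 in log2 CPM while genes of the same NC level had a median of -0.34. In OE replicate 2 it differed by 0.27, inside the middle 50% of such genes (-0.38 to 0.33). MKNK2 footprints per MKNK1 footprint were 7.68 and 2.02 in OE against 1.53 and 1.19 in NC, higher in both OE libraries. This ratio was picked after the values were seen. Its order, and its exact 2-sided permutation p of 0.333, the smallest possible, follow from the positions of the 2 genes and add no further evidence. MKNK1 was the only member with fractional counts, which it had in all 4 libraries; where the fractions come from was not tested.

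LARP1 (ENSG00000155506), the repressor of TOP messages, had 150 and 64.6 CPM in OE against 97.1 and 115 CPM in NC. OE replicate 1 lay above both NC libraries and OE replicate 2 below both, and the log2 fold change of 0.017 (SE 0.49; adjusted p = 0.994, edgeR) turned to -0.71 without OE replicate 1. The messages that LARP1 binds are recognised by how they begin. A TOP start was taken as a C at the first transcribed base followed by at least 4 C or T bases, on the sense strand. Of 35116 RefSeq start windows in GRCh38.p14, 4.07% had it. Counted by gene, 10 of the 12 genes of the TOP list with a window that could be shown here had it. So did 0 of the 9 members with such a window. A gene was counted if any of its windows had it, so these counts and the share of windows are unlike measures. EEF1B2 and NPM1 each also had a window without it. The starts below, from RefSeq, show 10 bases before and 20 bases from the first transcribed base, with the pyrimidine tract in capitals where there is a TOP start. EEF1A1, EEF2, TPT1 and RACK1 are elongation factors, a growth-related protein and a ribosomal scaffold; VIM (vimentin) is a listed TOP message whose RefSeq window has no tract, and EIF4E, EIF4EBP2 and PDCD4 stand for the members. EEF1A1 and RACK1 were picked after their values were seen.
EEF1A1 (chr6:73521013-73521042, minus strand): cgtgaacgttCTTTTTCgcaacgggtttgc
EEF2 (chr19:3985444-3985473, minus strand): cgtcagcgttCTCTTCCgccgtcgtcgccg
TPT1 (chr13:45341164-45341193, minus strand): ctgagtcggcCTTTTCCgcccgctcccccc
RACK1 (chr5:181243887-181243916, minus strand): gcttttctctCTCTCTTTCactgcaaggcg
VIM (chr10:17228231-17228260, plus strand): atcgtgatctgggaggcccacgtatggcgc
EIF4E (chr4:98929114-98929143, minus strand): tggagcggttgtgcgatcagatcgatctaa
EIF4EBP2 (chr10:70404135-70404164, plus strand): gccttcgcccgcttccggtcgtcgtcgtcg
PDCD4 (chr10:110871918-110871947, plus strand): gagaagggccagagactctccgaggcggcg

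The 19 TOP messages outside the ribosomal proteins, the class that LARP1 binds, had medians on opposite sides of NC in the OE libraries. In OE replicate 1 their median stood at -0.95 against the NC mean, on the log2 scale, and in OE replicate 2 at 0.35. The corresponding medians of all genes were 0.02 and 0.00, and the NC libraries differed by 0.19 on this list. By edgeR's quasi-likelihood test 0 of 19 passed; 0 lay higher in both OE libraries and 3 lay lower (VIM, EEF2 and EIF4B), beside 19.9% and 20.4% of all genes. Most of these messages are abundant, and the highest decile of NC level had a median of -1.08 in OE replicate 1; the part of this in the TOP values was not tested. EEF1A1 had 2088 and 8035 CPM in OE against 3970 and 3320 CPM in NC, and RACK1 had 405 and 2256 CPM in OE against 1179 and 1033 CPM in NC, each below NC in OE replicate 1 and above it in OE replicate 2. LARP1 stood the other way round against the NC mean in the same libraries, as did 25.0% of all genes. Its relation to the TOP values was not tested. TPT1 had 302 and 912 CPM in OE against 368 and 290 CPM in NC. VIM, without a tract in its window, had 44.5 and 47.8 CPM in OE against 96.1 and 85.2 CPM in NC, a log2 fold change of -0.97 (SE 0.30). PABPC1, the poly(A)-binding protein, had 1104 and 258 CPM in OE against 407 and 407 CPM in NC, the reverse order of EEF1A1.

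Of the 10 members, 4 lay above the NC mean in OE replicate 1 and below it in OE replicate 2 (EIF4EBP2, EIF4ENIF1, LARP1 and GIGYF2) and 0 the other way; over all genes 25.0% and 24.3% did so. Of the 45 pairs of members, EIF4E2 and MKNK1 had the most similar profiles over the 4 libraries, with a root mean square distance of 0.16 between their centred log2 CPM. PDCD4 and MKNK1 (0.18) and LARP1 and GIGYF2 (0.19) followed, and the most distant were EIF4E and EIF4EBP2 (1.56).

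**Figure D3:**
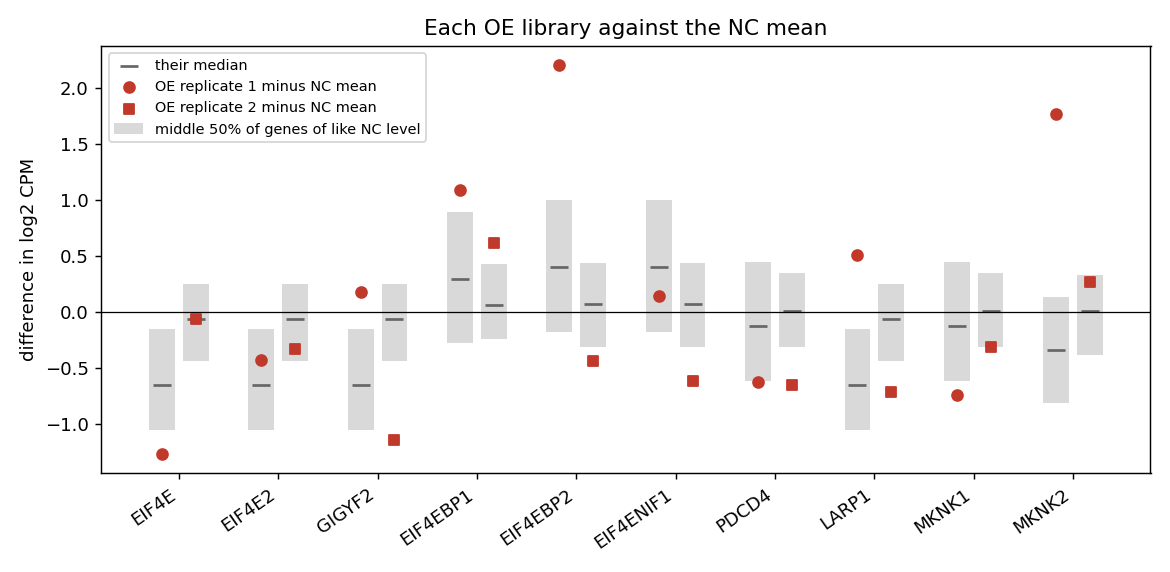
Difference of each OE library from the NC mean in log2 CPM (red circles for OE replicate 1, red squares for OE replicate 2), with grey bars for the middle 50% and a dash for the median of all genes in the same decile of NC level. EIF4EBP1 lies above the grey bar in both OE libraries (1.09 and 0.61), PDCD4 at or below it (-0.62 and -0.65), and LARP1 and GIGYF2 above it in OE replicate 1 and below it in OE replicate 2.

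Leaving out either OE library left a fit in which the single remaining OE library is assumed to vary as the NC libraries do. Without OE replicate 1, 5 of 10 members passed (EIF4EBP1, EIF4ENIF1, PDCD4, LARP1 and GIGYF2) and 34.1% of all genes did. Without OE replicate 2, 8 of 10 passed (all but EIF4ENIF1 and GIGYF2) and 60.9% of all genes did. The fits share both NC libraries, so likeness between them is no further evidence, and their values are given side by side. EIF4EBP1 had log2 fold changes of 0.62 (adjusted p = 0.00801) and 1.06 (adjusted p = 1.01e-05) when OE replicate 1 and when OE replicate 2 was left out, by edgeR. PDCD4 had -0.66 (adjusted p = 0.00275) and -0.67 (adjusted p = 0.00278) by the same test. LARP1 had -0.71 (adjusted p = 0.000715) and 0.46 (adjusted p = 0.00922), of opposite sign.

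Of 22 genes of the cap-binding complex and other cap binders, 0 passed edgeR's quasi-likelihood test, 2 lay higher in both OE libraries and 7 lower, beside 19.9% and 20.4% of all genes. Their median log2 fold change was -0.20. DCP2, the decapping enzyme, had 20.2 and 12.8 CPM in OE against 8.24 and 7.62 CPM in NC. PAIP2, which pulls the poly(A)-binding protein off messages, had 78.0 and 101 CPM in OE against 135 and 140 CPM in NC. CYFIP1, a partner of FMR1 that binds EIF4E, had 80.4 and 91.2 CPM in OE against 117 and 126 CPM in NC, and DCP1B, a decapping cofactor, had a log2 fold change of -0.58. Picked after their values were seen, the scaffold EIF4G1 had 414 and 141 CPM in OE against 413 and 454 CPM in NC, and the helicase EIF4A1, which PDCD4 inhibits, had 734 and 3486 CPM in OE against 2818 and 2717 CPM in NC.

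Of 15 partners of repression by EIF4E2 and EIF4ENIF1, 0 passed, 3 lay higher in both OE libraries and 1 lower, beside 19.9% and 20.4% of all genes. Their median log2 fold change was 0.36, and their median against the NC mean was 0.56 for OE replicate 1 and -0.09 for OE replicate 2. ZFP36L1, which recruits repressors to AU-rich messages, had 47.0 and 27.3 CPM in OE against 23.4 and 20.7 CPM in NC. PATL1, a decapping activator, had a log2 fold change of 0.50 (SE 0.36). GIGYF1, the paralogue of GIGYF2, had 0.89 (SE 0.67) and TNRC6C, a partner of Argonaute, 0.70 (SE 0.54). Both lay above NC in OE replicate 1, and in OE replicate 2 GIGYF1 lay below NC and TNRC6C within its range.

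Of 33 genes of mTORC1 and the kinases upstream of the repressors, 32 were tested and 0 passed, while 11 lay higher in both OE libraries and 2 lower, beside 19.9% and 20.4% of all genes. Their median log2 fold change was 0.28. MLST8, a subunit of mTORC1, was even between replicates, at 103 and 91.2 CPM in OE against 54.1 and 47.5 CPM in NC, a log2 fold change of 0.94 (SE 0.31). The kinase AKT2 had 53.7 and 33.2 CPM in OE against 22.9 and 25.1 CPM in NC. RPS6KB2, a kinase for ribosomal protein S6, had 48.2 and 11.9 CPM in OE against 11.6 and 10.1 CPM in NC, nearly all of the difference in OE replicate 1. DDIT4, an inhibitor of mTORC1, had 247 and 39.0 CPM in OE against 48.3 and 34.0 CPM in NC, with OE replicate 2 inside the NC range.

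Of the 6 other members of the LARP family 0 passed, 1 lay higher and 1 lower in both OE libraries, beside 19.9% and 20.4% of all genes. SSB, the La protein, had 110 and 158 CPM in OE against 181 and 220 CPM in NC, and LARP4B had 37.9 and 44.6 CPM in OE against 28.8 and 33.6 CPM in NC. LARP7 and LARP4 had log2 fold changes of -0.33 and 0.19. Of 14 messages known to be sensitive to the level of EIF4E, 12 were tested, 0 passed, 3 lay higher in both OE libraries and 0 lower, beside 19.9% and 20.4% of all genes. Their median log2 fold change was 0.37. BIRC5 (survivin) had 105 and 191 CPM in OE against 94.5 and 66.1 CPM in NC, and the kinase PIM1 had 39.7 and 15.5 CPM in OE against 13.3 and 15.3 CPM in NC. VEGFA had 44.5 and 8.91 CPM in OE against 12.0 and 12.1 CPM in NC, on both sides of NC, as did ODC1 with 309 and 90.8 CPM in OE against 113 and 119 CPM in NC.

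**Figure D4:**
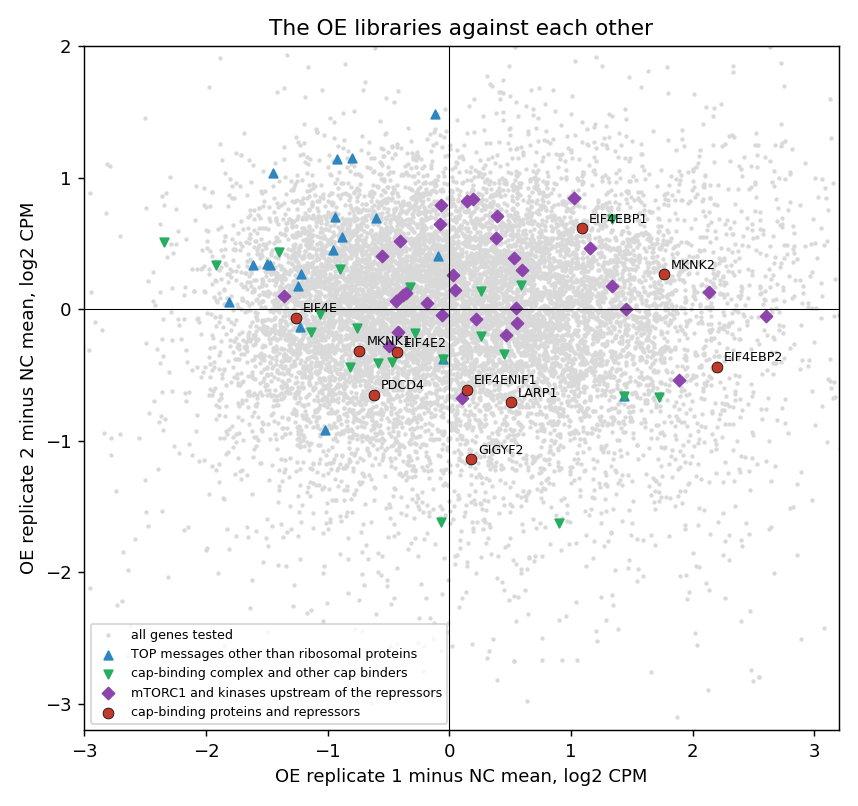
Difference from the NC mean in log2 CPM in OE replicate 1 (horizontal) and in OE replicate 2 (vertical), with all genes tested in grey, the 10 cap-binding and repressor genes in red with their names, and the TOP list, the cap-binding complex and the mTORC1 list in blue, green and purple; 236 of 12560 genes lie outside the plotted range. Most TOP messages lie at upper left (medians -0.95 and 0.35), EIF4EBP1 and MKNK2 at upper right, and LARP1 and GIGYF2 at lower right.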

How the data were processed

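Ribosome footprints of 4 libraries were counted per Ensembl gene. The authors deposited 1 table of estimated counts per library, in a column named count per the file headers; between 13.8% and 14.7% of values held a fraction, so they were rounded before each count test. Tools named per the submitters' processing notes were RSEM, StringTie, HISAT2, Bowtie2 and fastp, with hg18 as the build. For their versions and order, and for the annotation, strand and multi-read settings, the sources used here give nothing. Without strand, overlapping genes cannot be told apart. In a RefSeq gene table (GRCh38.p14, used for names only) 7 of 10 members overlap another gene, and 6 have a named pseudogene that could share reads. Overlap was taken over whole gene spans, introns included. PDCD4 and GIGYF2 overlap a protein-coding gene (BBIP1 and KCNJ13), and the others overlap only non-coding genes or pseudogenes.

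OE was compared with NC in R 4.3.3 by edgeR 4.0.16 (filterByExpr with minimum count 10, minimum total 15 and proportion 0.7; TMM; quasi-likelihood F test on group alone; p adjusted after Benjamini and Hochberg across the table; threshold 0.05). Differences per library are log2 CPM with a prior count of 2; CPM are deposited counts over TMM-scaled totals. DESeq2 1.42.0 and limma 3.58.1 gave alternatives. Poisson and binomial 95% intervals are exact and cover counting error only. The steps were tested on simulated data. Replicates were compared with each other: counts differed by a chi-square per degree of freedom of 330 within OE and 13.0 within NC. The libraries of a pair thus differed by more than counting error. Whether they came from separate cultures cannot be read from this. P-values of the count tests set the group difference against the spread between these libraries, with information shared over genes. Permutation p-values compare arrangements of the same libraries. The members, the lists and the ratios were chosen with earlier results of these data known. Of each list, up to 4 tested genes with the smallest p were named. Other tested genes whose own values are given are marked as picked later.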

Additional observations from a re-analysis of the deposited data

How the results depend on the processing

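Over all 4 libraries no alternative called a member. The number of all genes called was 0 in the main setting and also 0 (limma-voom, RLE factors, library totals, no filter, at least 50 counts, summed rows), but 25 by DESeq2, 29 by edgeR's likelihood ratio test and 24 with the replicate block, where 0 members were called. The replicate numbers do not pair the libraries by any label, and the deviations of the same-numbered libraries correlated at -0.10 over genes. Leaving out each library in turn gave between 7 and 7969 genes and between 0 and 8 members. Library totals moved the median log2 fold change of all genes to 0.40 from 0.09. Of 130 alternative values for the members, 108 kept their sign and side of the threshold, 13 passed it and 10 turned sign, 1 of which did both (LARP1 without OE replicate 1). LARP1 had -0.020 with limma-voom, -0.028 without a filter, -0.10 with the replicate block, and without a library between -0.71 and 0.46, with -0.12 without NC replicate 1. EIF4ENIF1 and GIGYF2 had 0.20 and 0.11 with library totals. With a library left out, EIF4ENIF1 lay between -0.63 and 0.091, GIGYF2 between -1.14 and 0.14 (each positive without OE replicate 2), and EIF4EBP2 between -0.44 (without OE replicate 1) and 2.17. The ratio of EIF4E2 to EIF4E lay between -0.26 and 0.83 without a library, and that of EIF4EBP1 to EIF4E between 0.68 and 2.36. The replicate block could not move their means of 0.28 and 1.52, because each replicate number occurs once in each group. The cause of these turns was not tested. OE replicate 1, which stands apart, is also the shallowest library, and what depth adds to its distance was not tested.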
